A study of Homo sapiens with 4 samples.

Results

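Cadherins, desmosomal proteins and nectins are the surface receptors that join epithelial cells to each other, together with the plaque proteins that tie them to the cytoskeleton. Their mRNAs were followed in BEAS-2B, an immortalized line from human bronchial epithelium kept in N2B27, a defined serum-free medium. The genes were chosen by name, from a list of 46 symbols of which 5 are older names of listed genes, and 41 genes of the 39634 with values in the table carried a listed symbol. The rule used names and no measured value, but the list was chosen with earlier results of these data known. The genes comprise 17 cadherin (CDH) genes, 7 desmosomal cadherins and 6 desmosomal plaque and plakin genes. They also include 5 relatives of p120-catenin and alpha-catenin, 4 nectins with their partner afadin, and EPCAM. Polyadenylated RNA was sequenced from cells with a short hairpin RNA (shRNA) against FER (Fer knockdown, 2 libraries) and from cells with a control shRNA (control, 2 libraries). The labels do not say whether the shRNA cells were clones or pools, or whether replicates came from separate cultures, so the spread between replicates may be technical. The series asks what loss of FER, a tyrosine kinase of the cytoplasm, does to gene expression in this line.

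Cadherins bind the same kind of molecule on the neighbouring cell in the presence of calcium. In adherens junctions their tails hold p120-catenin, which keeps them at the surface, and beta-catenin or plakoglobin, which recruit alpha-catenin and actin. Desmosomes are built from desmogleins and desmocollins, whose tails bind plakoglobin and plakophilins, and desmoplakin links that plaque to intermediate filaments. Nectins are immunoglobulin-like receptors that need no calcium and connect to actin through afadin, and they often start the contact that cadherins then strengthen. FER is known to associate with p120-catenin. Only mRNA was measured here, so neither the amount of protein at junctions nor its phosphorylation is known, and fewer cells with a transcript cannot be told apart from less of it per cell.

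The libraries labelled Fer knockdown held 21422976 and 25169713 counts, and the control libraries 21772587 and 22857051. FER mRNA went against the label. FER had 404 and 535 counts in libraries labelled Fer knockdown and 334 and 459 in control, or 19.0 ± 1.66 against 18.8 ± 3.42 CPM (counts scaled to a common library size, SD, n = 2 each). On the log2 scale the difference was 0.02 ± 0.17 (SE, edgeR adjusted p = 0.976). Every direction below therefore follows the labels of the libraries and not a measured loss of FER mRNA. Counts on the mitochondrial chromosome made up 9.37% to 9.62% of the libraries labelled Fer knockdown and 16.9% to 19.4% of control. Values without those genes are given for the leading members below. The simple-epithelial keratins KRT8 and KRT18 were high, at means of 268 and 269 RPKM (CPM per kilobase of gene length), while KRT5 of basal cells had too few counts to be tested. So had KRT14, but KRT17, also found in basal epithelium, and KRT15 had means of 11.1 and 8.30 RPKM. Summed over 6 epithelial markers, nearly all of it KRT8 and KRT18, the level was 2616 to 2650 CPM in libraries labelled Fer knockdown and 2411 to 3076 CPM in control. Summed over 6 mesenchymal markers it was 3184 to 3323 CPM in libraries labelled Fer knockdown and 4092 to 4810 CPM in control, and whether that shift had a part in the results below was not tested. Most of that sum was FN1 and VIM. FN1 stood at 2004 and 1901 CPM in libraries labelled Fer knockdown and at 2003 and 2936 CPM in control. THY1 passed edgeR's test, lower in libraries labelled Fer knockdown (log2 fold change -0.77, adjusted p = 0.0302), while groups overlapped for FN1 and CDH2. Markers of leukocytes, endothelium, muscle and neural cells summed to at most 2.84 CPM in any library. Only 3 of the 4 endothelial markers had values, and CD68, of leukocytes, shares 85.8% of its exonic bases with other genes. Markers of melanocytes, nearly all of it PMEL, summed to 11.3 to 11.5 CPM in libraries labelled Fer knockdown and 9.87 to 11.3 CPM in control. CD3E, TYR and CDH19 were listed at 0 in each library.

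The adhesion genes differed widely in level. Of the 41, 35 had at least 1 count, 24 passed the filter on low counts and were tested, and 17 did not. Of all 39634 genes with values, 23979 had at least 1 count and 15336 were tested. The 41 are protein-coding, and of 19301 protein-coding genes 2623 were listed at 0 in each library. Counts of all 41 made up 0.125% and 0.126% of the libraries labelled Fer knockdown and 0.108% and 0.115% of control. These are shares of unscaled totals, of which mitochondrial counts took a larger part in control. Shares of the totals without mitochondrial counts were not computed, so the difference is not read as a change in the 41. Levels of different genes are compared as RPKM, on the lengths in the deposited table. The 12 highest were NECTIN2, CDH24, ARVCF, NECTIN4, PPL, PKP3, DSP, EVPL, PKP4, DSG2, CDH3 and NECTIN1, in that order, from a mean of 36.8 RPKM for NECTIN2 down to 4.76 RPKM for NECTIN1, and the same 12 led when lengths came from GENCODE release 29. The levels of NECTIN2 and CDH24 overlapped across libraries, as did those of ARVCF, NECTIN4 and PPL, so their order within these groups is not settled. The other 12 tested genes had means between 0.153 RPKM (CDH15) and 4.30 RPKM (CDH13).

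**Figure D1:**
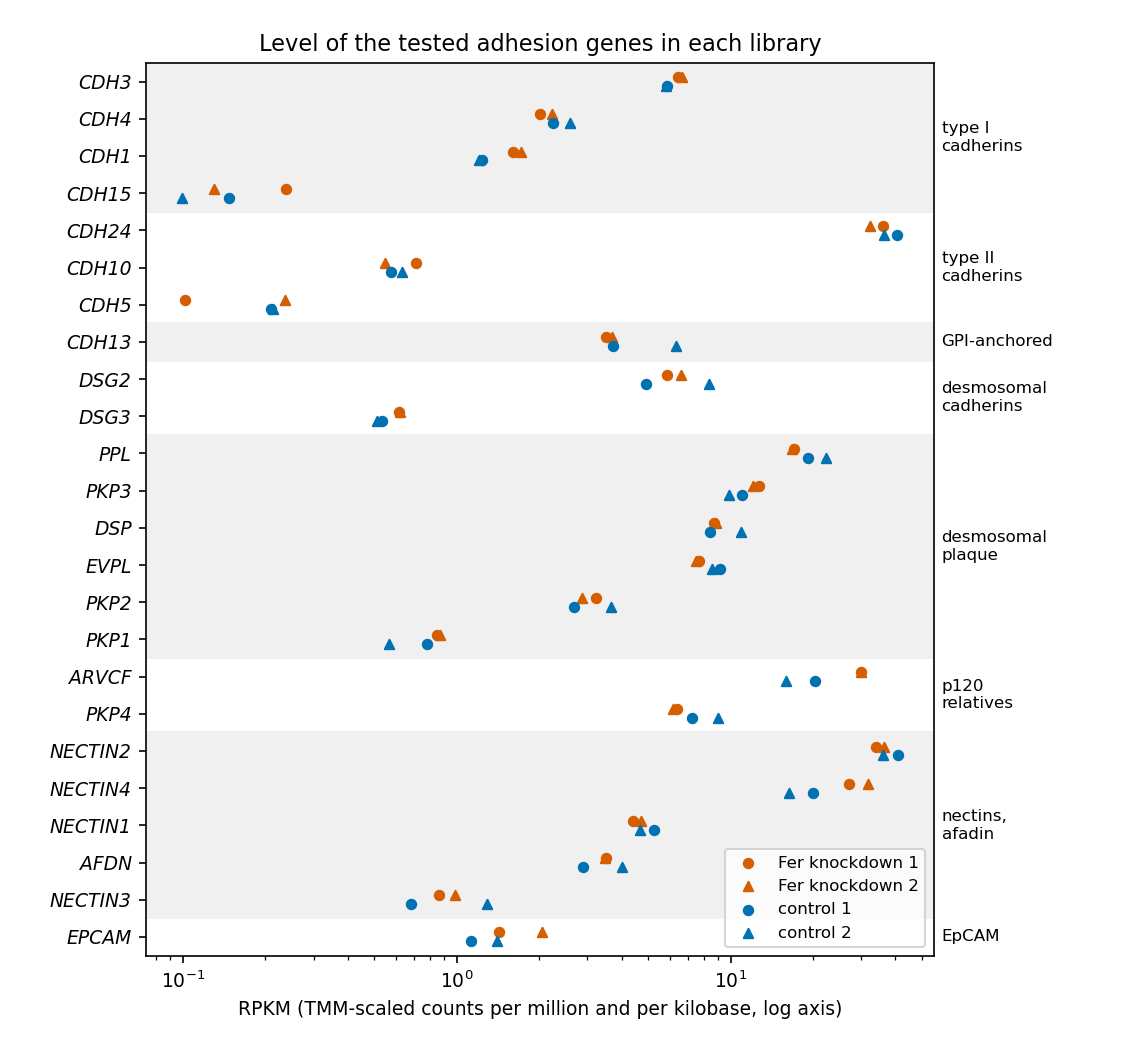
Level of each of the 24 tested adhesion genes in the 4 libraries, in RPKM on a log axis, grouped by role and ordered by mean within a role. Orange symbols are the libraries labelled Fer knockdown and blue symbols control, with circles for replicate 1 and triangles for replicate 2; CDH24 stands far above the other cadherins, and ARVCF and NECTIN4 show orange symbols to the right of blue ones.

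No tested member changed by the test across all genes. In edgeR's quasi-likelihood test with Benjamini-Hochberg adjustment over 15336 genes, 0 of the 24 passed an adjusted p of 0.05 in either direction, where 0.646% of all tested genes passed, 0.28% higher and 0.365% lower. DESeq2 called 2 of the 24, both higher, where it called 4.52% of the 12660 genes to which it gave an adjusted p, in either direction. It gave none to CDH5 and CDH15, which are counted in the 24. The limma-voom fit called 1 of the 24, where it called 1.16% of all tested genes in either direction. Before adjustment, 6 of the 24 had a p under 0.05, 3 higher (ARVCF, NECTIN4 and CDH1) and 3 lower (PPL, PKP4 and CDH13), where 17.7% of all tested genes did. Both libraries labelled Fer knockdown lay above both control libraries for 8 of the 24, where 25.8% of all tested genes did so. They lay below for 6, where 23.4% of all tested genes did so, and the groups overlapped for 10. The median log2 fold change of the 24 was -0.07, beside 0.01 over all tested genes, with 11 values above 0 and 13 below. Scaled by library totals alone, which moves the median of all genes to 0.18, 17 values lay above 0 and 7 below, with a median of 0.089. Fold changes ran from -0.48 (CDH13) to 0.72 (ARVCF) on the log2 scale, and standard errors from 0.126 to 0.537. For the 18 members with a mean of at least 5 CPM the standard error was at most 0.280.

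**Figure D2:**
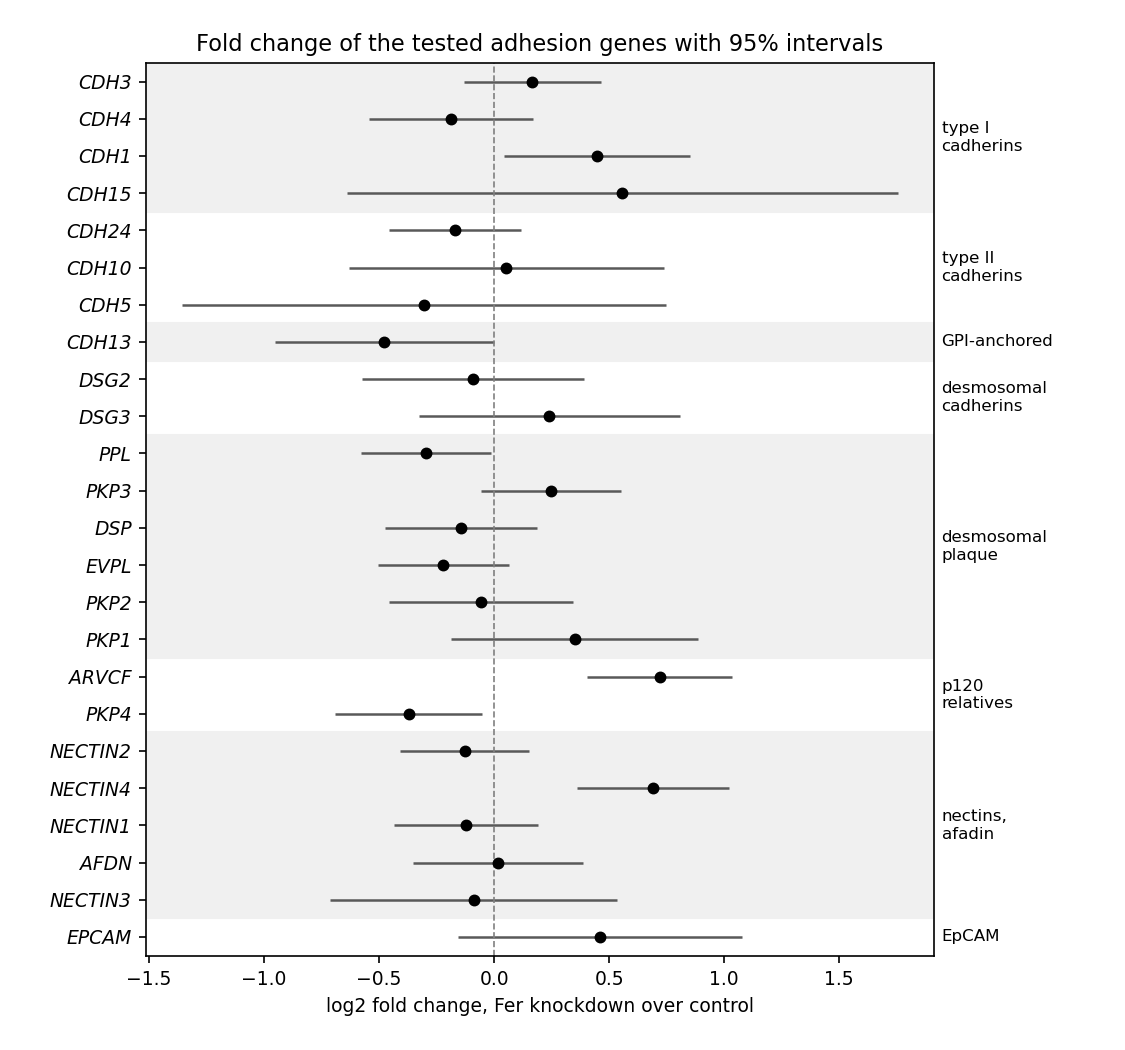
Log2 fold change of the 24 tested adhesion genes, libraries labelled Fer knockdown over control (2 each), with 95% intervals derived from edgeR's F statistic as bars. Intervals of 18 genes span 0; those of ARVCF, NECTIN4 and CDH1 lie above it and those of PPL, PKP4 and CDH13 below it, before any adjustment for the number of genes tested.

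Among the cadherins, CDH24 dominated. CDH24, a type II cadherin that binds catenins as classical cadherins do, stood at 36.2 and 32.2 RPKM in libraries labelled Fer knockdown and at 40.5 and 36.3 RPKM in control. It took 62.2% and 58.4% of the summed RPKM of the 17 CDH genes and CDH2 in libraries labelled Fer knockdown, and 66.1% and 58.1% in control. Its log2 fold change was -0.17 ± 0.13 (SE, adjusted p = 0.538), and the lower of the control libraries stood only just above the higher of the libraries labelled Fer knockdown. CDH2, the N-cadherin of mesenchymal and neural cells and not one of the 41, was next, with 12.2% and 13.6% of that sum in libraries labelled Fer knockdown and 10.6% and 14.9% in control. CDH3, the P-cadherin of basal epithelial layers, had 6.41 and 6.66 RPKM in libraries labelled Fer knockdown and 5.86 and 5.79 RPKM in control. The groups did not overlap, but the log2 fold change was only 0.17 ± 0.13 (SE, adjusted p = 0.566), and 11.1% of the exonic bases of CDH3 are shared with another gene.

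E-cadherin, the defining cadherin of epithelia, was a minor transcript. CDH1, its gene, had 222 and 279 counts in libraries labelled Fer knockdown and 154 and 159 in control, or 9.78 and 10.5 CPM against 7.53 and 7.33 CPM. Per length its mean over the 4 libraries was 1.44 RPKM, beside 7.61 RPKM for CDH2 on the longer, deposited length. CDH24, CDH3, CDH13 and CDH4 also had higher means than CDH1. CDH1 made up 2.76% and 3.12% of the summed cadherin RPKM in libraries labelled Fer knockdown and 2.01% and 1.92% in control. Both libraries labelled Fer knockdown were above both control libraries, at a log2 fold change of 0.45 ± 0.18 (SE), with a p of 0.0332 in edgeR's model before adjustment and 0.239 after it. It shares 5.62% of its exonic bases with another gene.

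CDH13 encodes T-cadherin, which is held in the membrane by a lipid anchor and has no tail for catenins. It stood at 38.6 and 40.8 CPM in libraries labelled Fer knockdown and at 41.1 and 69.4 CPM in control. The first control library was level with the libraries labelled Fer knockdown and only the second stood apart, so the log2 fold change of -0.48 ± 0.21 (SE, adjusted p = 0.281) became -0.07 when control replicate 2 was left out and -0.80 when control replicate 1 was. CDH4, the R-cadherin, had a mean of 2.27 RPKM and a log2 fold change of -0.19. CDH10, a type II cadherin found mainly in brain, stood at 0.615 RPKM, CDH5, the cadherin of endothelial junctions, at 0.190 RPKM and CDH15, of muscle precursors, at 0.153 RPKM, and for these 3 the groups overlapped.

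The remaining cadherins were near the floor. CDH16, CDH17, CDH11, CDH8, CDH18, CDH26, CDH6 and CDH7 had between 1 and 32 counts over the 4 libraries and were not tested, and CDH12 was listed at 0. CDH11, the cadherin of fibroblasts and osteoblasts, had 19 and 3 counts in libraries labelled Fer knockdown and 5 and 5 in control. CDH17, of intestinal epithelium, had 9 and 9 counts in libraries labelled Fer knockdown and 2 and 3 in control. A count of 0 allows up to 3 counts in a library, or 0.113 to 0.132 CPM in libraries labelled Fer knockdown and 0.138 to 0.147 CPM in control, counting error alone.

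Of the desmosomal cadherins with counts, DSG2 had the highest level. DSG2, the desmoglein of simple epithelia, had 5.86 and 6.58 RPKM in libraries labelled Fer knockdown and 4.93 and 8.31 RPKM in control. It took 90.3% and 91.2% of the summed RPKM of the 7 desmosomal cadherins in libraries labelled Fer knockdown and 89.7% and 93.2% in control, shares that count 4 genes listed at 0, DSC2 among them, as 0. The control libraries lay on either side of the libraries labelled Fer knockdown, and the log2 fold change of -0.09 (adjusted p = 0.876) became -0.41 when control replicate 1 was left out and 0.32 when control replicate 2 was. DSG3, the desmoglein of basal stratified epithelium, had a mean of 0.571 RPKM and a log2 fold change of 0.24 (adjusted p = 0.673).

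No desmocollin reached the test. DSC3 had 2 and 3 counts in libraries labelled Fer knockdown and 5 and 15 in control. DSC1, DSC2, DSG1 and DSG4 were listed at 0 in each library. DSG1, DSG4 and DSC1 belong to the outer layers of skin and hair, but DSC2 is the common desmocollin of simple epithelia. A listed 0 is not proof of absence in this table. Of 19301 protein-coding genes, 2623 were listed at 0 in each library, and they include GNL1 and MRPL53, chosen after their values were seen, which most cells express. MRPL53 shares 45.2% of its exonic bases with other genes, but GNL1 shares only 3.34% and DSC2 shares none.

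Plaque and plakin genes summed to more than the desmosomal cadherins, with DSC2 counted at its listed 0. The 6 reached 50.1 and 48.9 RPKM in libraries labelled Fer knockdown and 51.3 and 55.8 RPKM in control, where the 7 desmosomal cadherins reached 6.49 and 7.21 RPKM in libraries labelled Fer knockdown and 5.49 and 8.91 RPKM in control. Periplakin (PPL) and envoplakin (EVPL), plakins that link desmosomes and the cell cortex to keratin, had non-overlapping groups. PPL had 16.99 and 16.8 RPKM in libraries labelled Fer knockdown and 19.2 and 22.2 RPKM in control, a log2 difference of -0.30 ± 0.13 (SE, adjusted p = 0.259). EVPL had 7.70 and 7.51 RPKM in libraries labelled Fer knockdown and 9.17 and 8.54 RPKM in control, a log2 difference of -0.22 ± 0.13 (SE, adjusted p = 0.409). For both genes each library labelled Fer knockdown was below each control library. DSP, which encodes desmoplakin, had 8.66 and 8.85 RPKM in libraries labelled Fer knockdown and 8.43 and 10.9 RPKM in control, with overlapping groups (log2 fold change -0.14, adjusted p = 0.661).

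Plakophilins cluster desmosomal cadherins and recruit desmoplakin. PKP3, the broadly expressed member, was the main one, with 12.7 and 12.1 RPKM in libraries labelled Fer knockdown and 11.0 and 9.84 RPKM in control. The groups did not overlap, and the log2 fold change was 0.25 ± 0.14 (SE, adjusted p = 0.386). PKP2, of simple epithelia and heart, had a mean of 3.11 RPKM with overlapping groups (log2 fold change -0.06). PKP1, of stratified epithelia, had a mean of 0.764 RPKM and a log2 fold change of 0.35 (adjusted p = 0.495). PKP3 made up 25.3% and 24.7% of the summed RPKM of the 6 plaque and plakin genes in libraries labelled Fer knockdown and 21.5% and 17.7% in control.

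The largest difference of the set was in ARVCF, a relative of p120-catenin that binds the same stretch of the cadherin tail. ARVCF (ENSG00000099889, chromosome 22) had 3820 and 4480 counts in libraries labelled Fer knockdown and 2345 and 1949 in control. On the scaled values this was 168 and 169 CPM against 115 and 89.9 CPM. The libraries labelled Fer knockdown agreed closely and both were far above the control libraries, which differed more from each other. The log2 fold change of ARVCF was 0.72 ± 0.14 (SE, 95% interval 0.40 to 1.04), with a p of 4.85e-04 before adjustment and an adjusted p of 0.0549, just short of the threshold.

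PKP4, a second p120 relative also found at adherens junctions, pointed the other way. It stood at 60.6 and 58.8 CPM in libraries labelled Fer knockdown and at 68.9 and 85.5 CPM in control, a log2 difference of -0.37 ± 0.14 (SE, adjusted p = 0.220). Each library labelled Fer knockdown was below each control library, and 4.39% of the exonic bases of PKP4 overlap its antisense gene. ARVCF took 82.4% and 82.9% of the summed RPKM of the 5 p120 and alpha-catenin relatives in libraries labelled Fer knockdown and 73.8% and 63.9% in control. CTNND2, of neurons, and CTNNA3, of heart, had 4 and 7 counts over the 4 libraries, and CTNNA2, of neurons, was listed at 0. CTNND1, the gene of p120-catenin itself, had a mean of 1.83 RPKM and a log2 fold change of -0.05 (adjusted p = 0.902), against a mean of 24.0 RPKM for ARVCF. In GENCODE release 29, 4.64% of the exonic bases of CTNND1 overlap a read-through gene with TMX2. The deposited length of CTNND1 is 9787 bases, against 8798 in that release, so the annotation used for counting differed. Whether CTNND1 lost counts in it was not tested, and its level beside ARVCF is not settled.

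**Figure D3:**
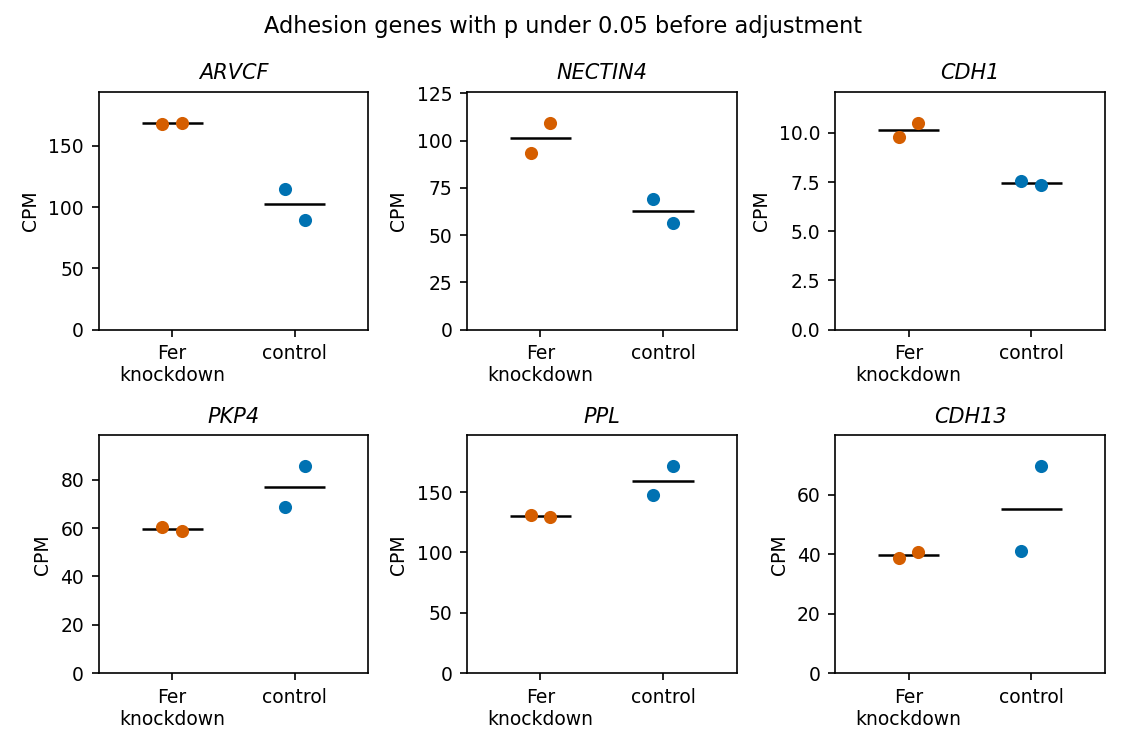
CPM in each library of the 6 adhesion genes with p under 0.05 before adjustment, on axes that start at 0, with the libraries labelled Fer knockdown in orange on the left and control in blue on the right; black lines are means of 2 libraries. ARVCF, NECTIN4 and CDH1 were higher in both libraries labelled Fer knockdown, PPL and PKP4 lower, and the CDH13 difference came from a single control library.

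The leading nectin stood level with the leading cadherin. NECTIN2, which is also a ligand of receptors on natural killer and T cells, had 34.0 and 36.4 RPKM in libraries labelled Fer knockdown and 40.8 and 36.1 RPKM in control, with overlapping groups (log2 fold change -0.13 ± 0.13 (SE), adjusted p = 0.645). NECTIN4, an epithelial nectin that is also the entry receptor of measles virus on airway epithelium, differed more. NECTIN4 (ENSG00000143217, chromosome 1) had 2118 and 2904 counts in libraries labelled Fer knockdown and 1413 and 1227 in control, or 93.3 and 109 CPM against 69.1 and 56.6 CPM. Both libraries labelled Fer knockdown were above both control libraries. Its log2 fold change was 0.69 ± 0.15 (SE, 95% interval 0.36 to 1.02), with a p of 9.19e-04 before adjustment and an adjusted p of 0.0639. No exon of another gene overlaps NECTIN4.

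NECTIN4 made up 40.7% and 42.9% of their summed RPKM in libraries labelled Fer knockdown and 29.9% and 28.0% in control. NECTIN2 made up 51.3% and 49.4% in libraries labelled Fer knockdown and 61.2% and 61.8% in control. These shares follow from the levels above and were not tested apart from them. NECTIN1, a widely expressed nectin and receptor of herpes simplex virus, had 4.40 and 4.72 RPKM in libraries labelled Fer knockdown and 5.26 and 4.65 RPKM in control (log2 fold change -0.12, adjusted p = 0.709). NECTIN3 had a mean of 0.953 RPKM and a log2 fold change of -0.09. AFDN, which encodes afadin, the actin linker of all 4, had a mean of 3.47 RPKM with a log2 difference of 0.02 ± 0.17 (SE, adjusted p = 0.975). Groups overlapped for these 3 genes.

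EPCAM encodes an epithelial surface protein that affects cadherin contacts. It had 79 and 132 counts in libraries labelled Fer knockdown and 56 and 74 in control, or 3.48 and 4.97 CPM against 2.74 and 3.41 CPM. The groups barely separated, and the log2 fold change was 0.46 ± 0.28 (SE, adjusted p = 0.426). At a mean of 1.502 RPKM it was as low as CDH1, although both are used as markers of epithelial cells.

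ARVCF and NECTIN4 came closest to the threshold, and their calls depended on the method. The log2 fold change of ARVCF ran from 0.53 to 0.91 over 13 alternatives, with adjusted p-values from 2.24e-27 to 0.431, and that of NECTIN4 from 0.53 to 0.85, with adjusted p-values from 2.92e-17 to 0.800. Leaving out the mitochondrial genes gave 0.71 for ARVCF (adjusted p = 0.0573) and 0.68 for NECTIN4 (adjusted p = 0.0685). DESeq2 called both (adjusted p = 0.00158 for ARVCF and 0.00452 for NECTIN4), and limma-voom called ARVCF alone (adjusted p = 0.0440, against 0.0534 for NECTIN4). Without either library labelled Fer knockdown neither gene passed, at adjusted p-values of 0.313 and 0.431 for ARVCF and 0.198 and 0.800 for NECTIN4. The smallest p-values came from fits without 1 control library, in which the spread rests on the libraries labelled Fer knockdown. Those varied less, with a median SD of log2 CPM over the tested members of 0.0698, against 0.171 in control.

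**Figure D4:**
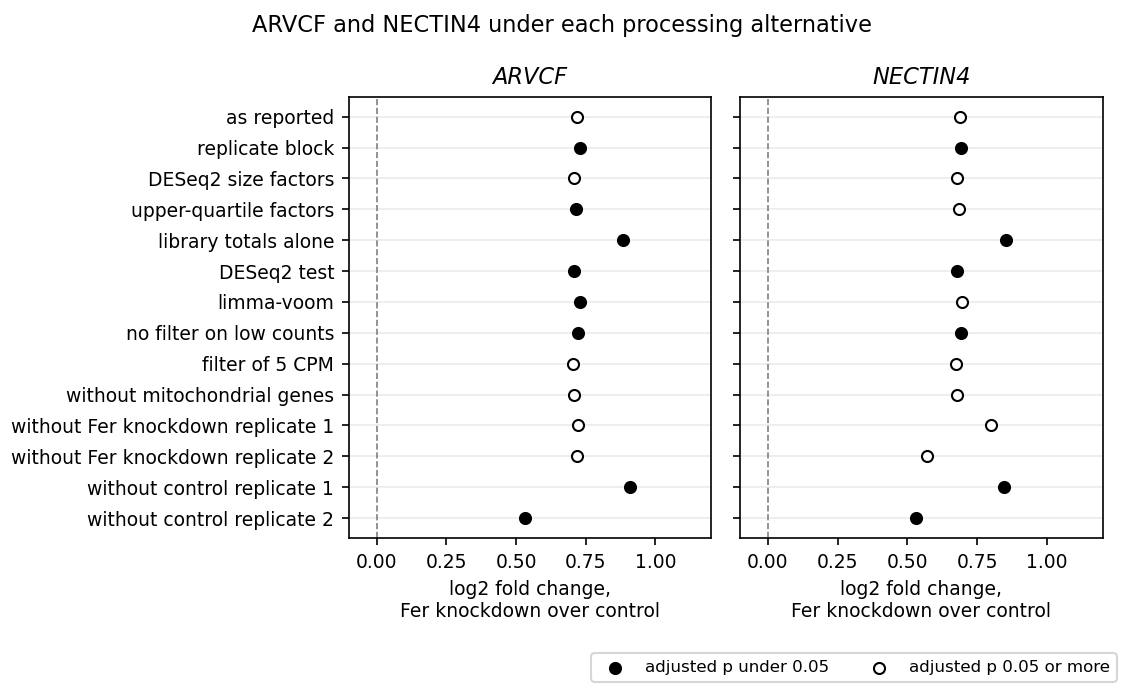
Log2 fold change of ARVCF and NECTIN4, libraries labelled Fer knockdown over control, as reported and under each of 13 processing alternatives. Filled points have an adjusted p under 0.05 and open points 0.05 or more; every estimate lies above 0.5, and the call switches with the method.

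The promoter windows of these leading genes are shown because repressors of epithelial cadherin bind E-boxes. Each is the 250 bases before the gene start in RefSeq's GRCh38.p14 annotation, written 5′ to 3′ on the gene's own strand, with the E-box letters CACCTG or CAGGTG, which are each other's reverse complement, in capitals. The ARVCF window is chr22:19987197-19987446 and the NECTIN4 window chr1:161089559-161089808, both on the minus strand.
ARVCF: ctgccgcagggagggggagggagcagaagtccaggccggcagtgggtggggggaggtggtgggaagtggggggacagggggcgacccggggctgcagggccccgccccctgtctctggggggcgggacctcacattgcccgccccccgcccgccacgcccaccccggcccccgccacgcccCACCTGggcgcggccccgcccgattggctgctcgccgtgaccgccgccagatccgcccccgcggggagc
NECTIN4: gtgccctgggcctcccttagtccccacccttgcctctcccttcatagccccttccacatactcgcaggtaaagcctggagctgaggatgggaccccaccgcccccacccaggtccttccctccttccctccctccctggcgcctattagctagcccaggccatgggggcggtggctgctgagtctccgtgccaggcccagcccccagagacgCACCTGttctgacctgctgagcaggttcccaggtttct
Each window held 1 such E-box, which began 69 bases before the start in ARVCF and 38 bases before it in NECTIN4. Of all 35116 windows of this length in the table, 17.5% held at least 1. Of the 41 adhesion genes, tested or not, 24 matched by symbol, with 39 windows, some genes having several. CDH1 was not among the 24. At least 1 E-box stood in 20.5% of these 39 windows and, counted by gene, in a window of 33.3% of the 24. Among the 14 windows of genes that were also tested for expression, 42.9% held one. The share of 17.5% counts all windows, expressed or not, so only the 20.5% can be set beside it. Shares by gene or among tested genes were not computed for all genes. The match is a description of letters and not of binding.

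The rest of the junction was described by lists of other adhesion genes, and 0 of their 76 tested genes passed edgeR's test across all genes. Before adjustment 20 of the 76 had a p under 0.05, where 17.7% of all tested genes did. DESeq2 called 6 of the 76, against 4.52% of all genes with an adjusted p from it, and limma-voom called 3, against 1.16% of all tested genes. Of 13 catenins and adherens junction partners, 0 passed an adjusted p of 0.05 in edgeR, with a median log2 fold change of -0.05. Before adjustment 6 of the 13 had a p under 0.05 in that test, CTNNB1 and AJUBA higher and JUP, ACTN1, ACTN4 and VCL lower. DESeq2 called 2 of the 13 and limma-voom 0. CTNNB1, which encodes beta-catenin, stood at 240 and 241 CPM in libraries labelled Fer knockdown and at 174 and 217 CPM in control (log2 fold change 0.30, adjusted p = 0.281). JUP, which encodes plakoglobin, shared by adherens junctions and desmosomes, stood at 106 and 106 CPM in libraries labelled Fer knockdown and at 146 and 145 CPM in control (log2 fold change -0.46, adjusted p = 0.0960). The libraries labelled Fer knockdown were above control for beta-catenin and below it for plakoglobin, without overlap. CTNNA1, of alpha-catenin, was at 0.02 (adjusted p = 0.937), CDH2 at -0.11 (adjusted p = 0.783) and ACTN1, an actin crosslinker, at -0.43 (adjusted p = 0.0984).

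**Figure D5:**
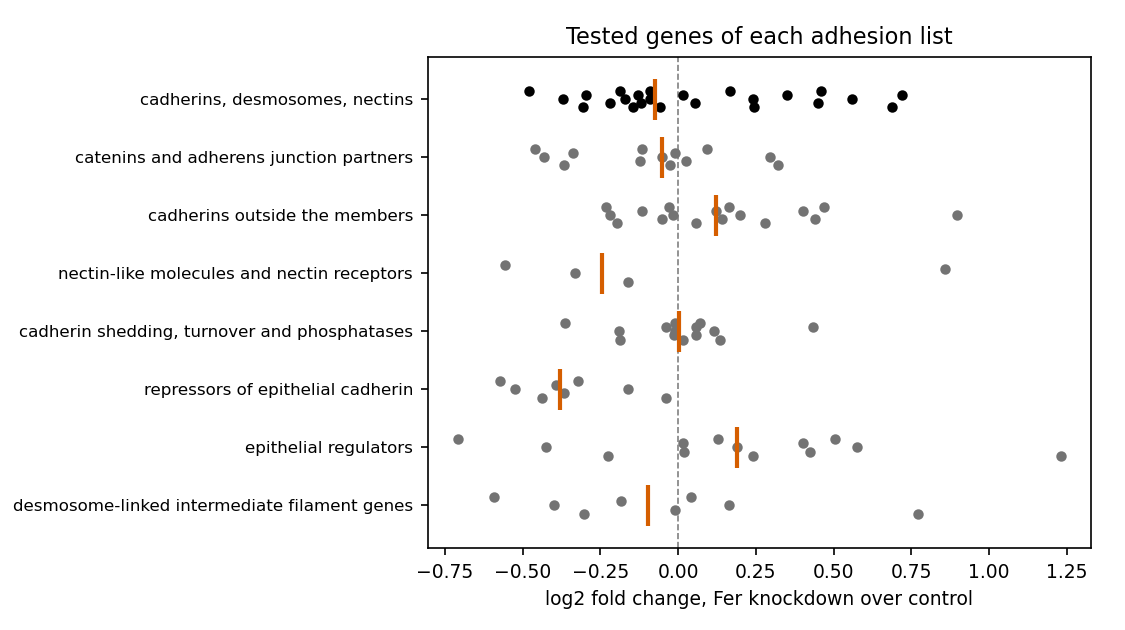
Log2 fold change, libraries labelled Fer knockdown over control, of each tested gene in the set of cadherins, desmosomal genes and nectins (black) and in 7 related lists (grey), with the list's median as an orange bar. No gene shown passed an adjusted p of 0.05 in edgeR. Repressors of epithelial cadherin all lie below 0 on this scale (6 of 8 with library totals alone) and the other lists spread to both sides.

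Among 17 tested cadherins outside the set, such as protocadherins and calsyntenins, 0 passed, with a median log2 fold change of 0.12. PCDH18, a protocadherin at 0.268 RPKM, was at 0.90 (adjusted p = 0.241), and CELSR3, an adhesion receptor with cadherin repeats, was at 0.20 (adjusted p = 0.453). Of 9 nectin-like molecules and nectin receptors, 4 were tested and 0 passed in edgeR, with a median of -0.25. DESeq2 and limma-voom each called 1 of the 4, where they called 4.52% and 1.16% of all genes given an adjusted p. CADM4, a nectin-like adhesion molecule, stood at 59.8 and 63.8 CPM in libraries labelled Fer knockdown and at 39.4 and 28.8 CPM in control, a log2 difference of 0.86 ± 0.17 (SE, adjusted p = 0.0549). The groups were well apart, as for ARVCF and NECTIN4. PVR, the poliovirus receptor, was at -0.33 (adjusted p = 0.220). Of 14 genes for cadherin shedding, turnover and phosphorylation, 0 passed, with a median of 0.00. PTPRJ, a receptor tyrosine phosphatase, was at 0.44 (adjusted p = 0.146) and CBLL1, a ubiquitin ligase known for E-cadherin, at -0.36 (adjusted p = 0.389).

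No repressor of epithelial cadherin and no gene on the list of epithelial regulators passed edgeR's test. All 8 repressors of epithelial cadherin were tested and 0 passed, and all 8 fold changes lay below 0, with a median of -0.38 on the log2 scale. With library totals alone 6 of the 8 lay below 0 (median -0.22), as did 6 without control replicate 2 (median -0.16). TWIST2 stood at 6.91 and 7.64 CPM in libraries labelled Fer knockdown and at 11.1 and 9.92 CPM in control (log2 fold change -0.52, adjusted p = 0.186). SNAI1 stood at 4.45 and 4.97 CPM in libraries labelled Fer knockdown and at 7.14 and 6.87 CPM in control (log2 fold change -0.57, adjusted p = 0.194). Groups did not overlap for 4 of the 8 repressors, all lower in libraries labelled Fer knockdown, where 23.4% of all tested genes were lower without overlap. Of 18 epithelial regulators, 13 were tested and 0 passed in edgeR, with a median log2 fold change of 0.19 and 10 values above 0. Where DESeq2 called 4.52% and limma-voom 1.16% of all genes given an adjusted p, they called 1 and 0 of the 13 regulators. With a filter of 5 CPM, 8 of them were tested, the median was 0.0029 and 5 values lay above 0. ESRP2, an epithelial splicing regulator, was at 0.50 (adjusted p = 0.142), and PERP, a membrane protein of desmosomes that the list also holds, was at -0.71 (adjusted p = 0.0771).

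Of 12 genes for the intermediate filaments that desmosomes hold, 8 were tested and 0 passed in edgeR, with a median log2 fold change of -0.10. Before adjustment 4 of the 8 had a p under 0.05 in edgeR, where 17.7% of all tested genes did. DESeq2 and limma-voom each called 2 of the 8, where they called 4.52% and 1.16% of all genes given an adjusted p. VIM, the vimentin of mesenchymal cells, stood at 903 and 896 CPM in libraries labelled Fer knockdown and at 1455 and 1256 CPM in control, a log2 difference of -0.59 ± 0.12 (SE, adjusted p = 0.0549), and 24.4% of its exonic bases are shared with its antisense gene. KRT17, a keratin of basal and stressed epithelium, stood at 40.5 and 43.7 CPM in libraries labelled Fer knockdown and at 27.4 and 21.95 CPM in control, a log2 difference of 0.77 ± 0.16 (SE, adjusted p = 0.0552). The groups were apart for both genes, in opposite directions, and both missed the threshold narrowly in edgeR. Their counts, like those of every list here, come from the same 4 libraries and are not independent of the values of the cadherins and nectins.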

How the data were processed

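The authors deposited raw read counts per gene with gene lengths, per the file headers. The tools HISAT2, featureCounts and DESeq2 and the builds hg19 and mm10 appear, without roles, in the submitters' processing notes. Strand setting and annotation release: not given in the sources used here. Per the labels' protocols, DNase-treated RNA was enriched for poly(A) tails with oligo(dT) beads for Illumina TruSeq libraries. Of 39635 rows, 1 had no values and was left out. The column for Fer knockdown replicate 1 has a shortened name and was matched because no other knockdown library has that number.

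The count test was that of edgeR 4.0.16 under R 4.3.3 (filterByExpr defaults, 15336 genes; TMM factors 1.06 and 1.06 for Fer knockdown, 0.940 and 0.949 for control; quasi-likelihood test, two-sided, no block, 2 residual degrees of freedom), with Benjamini-Hochberg adjustment over all tested genes at 0.05. CPM uses TMM-scaled totals, and RPKM divides it by the deposited length. Exon overlaps, on either strand, and chromosomes come from GENCODE release 29, of another build than hg19, so they carry no coordinates. Alternatives were DESeq2 1.42.0, its size factors, limma-voom 3.58.1, upper-quartile factors, library totals alone, the replicate number as a block, a filter of 5 CPM in 2 libraries or none, leaving out mitochondrial genes, and leaving out each library. The steps were run on simulated counts with known fold changes and the same dispersion for every gene and group. In the data control libraries varied more, so that run cannot show how often changes like those of the members would be called.

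The adhesion genes, the related lists and the markers were chosen with earlier results of these data known. By rule, per-library values were given for members with an adjusted p under 0.1 or among the 12 highest per length, other tested members by range and fold change, and, of each related list, the 2 with the smallest p beside CDH2, CTNNA1, CTNNB1, CTNND1 and JUP. Per-library values of CDH1, CDH13, EPCAM and the low-count genes were added after they were seen. Marker lists covered epithelial, mesenchymal, endothelial, leukocyte, melanocyte, muscle and neural cells.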

Additional observations from a re-analysis of the deposited data

How the results depend on the processing

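Among all tested genes, 99 passed as reported, against 990 with the replicate block, 192 with upper-quartile factors, 443 with library totals alone, 572 in DESeq2, 178 in limma-voom and 993 without a filter, and 55 to 4793 when 1 library was left out. Members called higher numbered 0 as reported, against 2 with the replicate block, 1 with upper-quartile factors, 2 with library totals alone, 2 in DESeq2, 1 in limma-voom, 2 without a filter and 0 to 3 with a library left out; members called lower numbered 0 to 5 with a library left out, and 0 under the other alternatives. The replicate numbers share no stated culture or day, and same-numbered deviations correlated at 0.037 over genes, so the block is given here only. The median log2 fold change of the members was -0.07 as reported, 0.089 with library totals alone (all tested genes: 0.18), and -0.058 to 0.12 with a library left out. With library totals alone the sign turned for DSG2 (0.073), DSP (0.020), NECTIN1 (0.044), NECTIN2 (0.037), NECTIN3 (0.073) and PKP2 (0.11), all below the shift of 0.18 in all genes. With a library left out the range crossed 0 for AFDN (-0.20 to 0.25), CDH10 (-0.14 to 0.24), CDH5 (-1.05 to 0.16), DSG2 (-0.41 to 0.32), DSP (-0.31 to 0.035), FER (-0.15 to 0.20), NECTIN3 (-0.47 to 0.43) and PKP2 (-0.26 to 0.16). Fits without a control library take the spread from the 2 libraries labelled Fer knockdown, in which replicates differed less. The 17 untested members had at most 32 counts each over the 4 libraries, and 6 of them were listed at 0; the cause was not tested.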
